A study of Rattus norvegicus with 11 samples.

Results

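The transcripts described here come from 5 genes tied to microglia, the resident immune cells of the brain, and to antigen presentation: C1qa (ENSRNOG00000012807), C1qb (ENSRNOG00000012804), Aif1 (ENSRNOG00000000853), Cd74 (ENSRNOG00000018735) and B2m (ENSRNOG00000017123). They were chosen by name and Ensembl identifier, by a rule that uses no measured value although it was written with earlier results of these data known, and all 5 were among the 15607 genes of the expression table. Messenger RNA was sequenced from medial prefrontal cortex (mPFC) punches of adult Sprague-Dawley rats aged 2 to 3 months, with 1 library per animal. The 11 animals were 4 males (replicates 2 to 5), 3 females in proestrus (replicates 1, 3 and 5) and 4 females in diestrus (replicates 2 to 5), and the labels give no drug or genetic change for any of them. Ovarian hormones are high in proestrus and low in diestrus, both stages of the estrous cycle. Proestrus females were killed in the early afternoon and diestrus females early in the day, so that stage and hour of killing cannot be told apart.

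C1q is the recognition protein of the classical complement pathway. It is assembled from A, B and C chains, C1qa and C1qb encoding the A and B chains, and in the healthy brain microglia are its main source. Complement proteins tag synapses that microglia then engulf. Aif1 encodes Iba1, the cytoplasmic calcium-binding protein by which microglia are stained. B2m encodes beta-2-microglobulin, the light chain that every classical MHC class I molecule needs to reach the surface, and Cd74 encodes the invariant chain that escorts MHC class II molecules through antigen-presenting cells.

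Promoter sequences are shown because C1qa and C1qb lie close together on chromosome 5 and are usually expressed together, whereas B2m is expressed in nearly all cells. The RefSeq promoter table held an entry for 4 of the 5 genes, Aif1 being the one without. Each sequence below is the 250 bases upstream of the annotated start, read 5′ to 3′ on the strand of the gene in the GRCr8 build: chr5:154419934-154420183 on the minus strand for C1qa, chr5:154407828-154408077 on the minus strand for C1qb and chr3:129549080-129549329 on the plus strand for B2m. Capitals mark matches, on either strand, to GGAAGT (the core bound by ETS family factors, such as the myeloid factor PU.1), CCAAT (the CCAAT box), TATAAA (the TATA box) or GAAA, any 2 bases and GAAA (the interferon-stimulated response element).
C1qa: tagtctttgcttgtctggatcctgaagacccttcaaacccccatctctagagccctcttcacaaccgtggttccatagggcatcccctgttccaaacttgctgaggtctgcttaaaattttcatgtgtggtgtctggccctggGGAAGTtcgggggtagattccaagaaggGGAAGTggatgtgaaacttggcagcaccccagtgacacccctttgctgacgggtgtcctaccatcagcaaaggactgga
C1qb: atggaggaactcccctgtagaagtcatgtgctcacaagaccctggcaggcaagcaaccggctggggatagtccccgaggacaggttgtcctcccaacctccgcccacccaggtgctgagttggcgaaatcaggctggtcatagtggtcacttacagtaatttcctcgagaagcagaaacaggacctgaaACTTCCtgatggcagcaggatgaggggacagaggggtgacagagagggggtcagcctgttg
B2m: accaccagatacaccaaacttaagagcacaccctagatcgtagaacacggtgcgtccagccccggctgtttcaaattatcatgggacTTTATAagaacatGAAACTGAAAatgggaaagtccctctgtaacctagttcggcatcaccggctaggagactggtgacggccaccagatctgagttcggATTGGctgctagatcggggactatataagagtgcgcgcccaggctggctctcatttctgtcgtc

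GGAAGT occurred 2 times upstream of C1qa and 1 time upstream of C1qb, on the opposite strand, and was absent from the B2m and Cd74 windows. Only this spelling was counted, and the shorter GGAA also stands in the B2m and Cd74 windows. GGAAGT was present in 19.2% of the 33469 rat promoter windows of this length. The B2m window held 1 interferon-stimulated response element, a motif found in 3.41% of windows. On the opposite strand it held 1 CCAAT box (34.0% of windows) and 1 match to TATAAA (12.9%). A similar stretch nearer the start, tatataag on the strand of the gene, is not an exact match and was not counted. The Cd74 window, which is not printed, held 1 CCAAT box. The palindromic estrogen response element (GGTCA, any 3 bases and TGACC), found in 0.0239% of windows, was not spelled out in any of the 4 windows. These matches describe letters only, and binding was not measured in the data used here.

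The C1q chains were measured in every library, with 648 to 1123 reads for C1qa and 316 to 553 reads for C1qb. The DESeq2-normalized count of C1qa was 1100, 941, 898 and 789 in diestrus females, 864, 697 and 715 in proestrus females and 835, 928, 766 and 714 in males. Diestrus replicate 2 was the highest animal and proestrus replicate 3 the lowest, and each pair of groups overlapped. The normalized count of C1qb was 542, 406, 359 and 347 in diestrus, 365, 339 and 388 in proestrus and 400, 397, 390 and 368 in males. The same 2 animals marked its extremes, and apart from diestrus replicate 2 the C1qb counts stayed within a narrow band, with a coefficient of variation (CV, the SD as a percentage of the mean) of 3.75% among the males and 21.6% in diestrus.

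The microglial marker gene Aif1 was covered by 196 to 352 reads per library. Its normalized count was 345, 328, 264 and 264 in diestrus, 245, 205 and 270 in proestrus and 260, 295, 232 and 303 in males. Diestrus replicates 2 and 3 were the highest and proestrus replicate 3 again the lowest animal, while the other animals of the 3 groups were interleaved.

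The antigen presentation genes differed in how even they were across animals. The normalized count of B2m was 4754, 5031, 4566 and 4276 in diestrus, 3524, 4055 and 4119 in proestrus and 4392, 5721, 4116 and 4867 in males. All 3 proestrus animals lay below all 4 diestrus animals, and 1 male, replicate 4, lay within the proestrus range. The normalized count of Cd74 was 254, 162, 178 and 231 in diestrus, 164, 233 and 177 in proestrus and 166, 295, 209 and 384 in males. Its highest animal was male replicate 5 and its lowest diestrus replicate 3, a span of 2.37-fold, and the males alone spanned nearly all of it. The plot of levels by group shows these values.

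**Figure D1:**
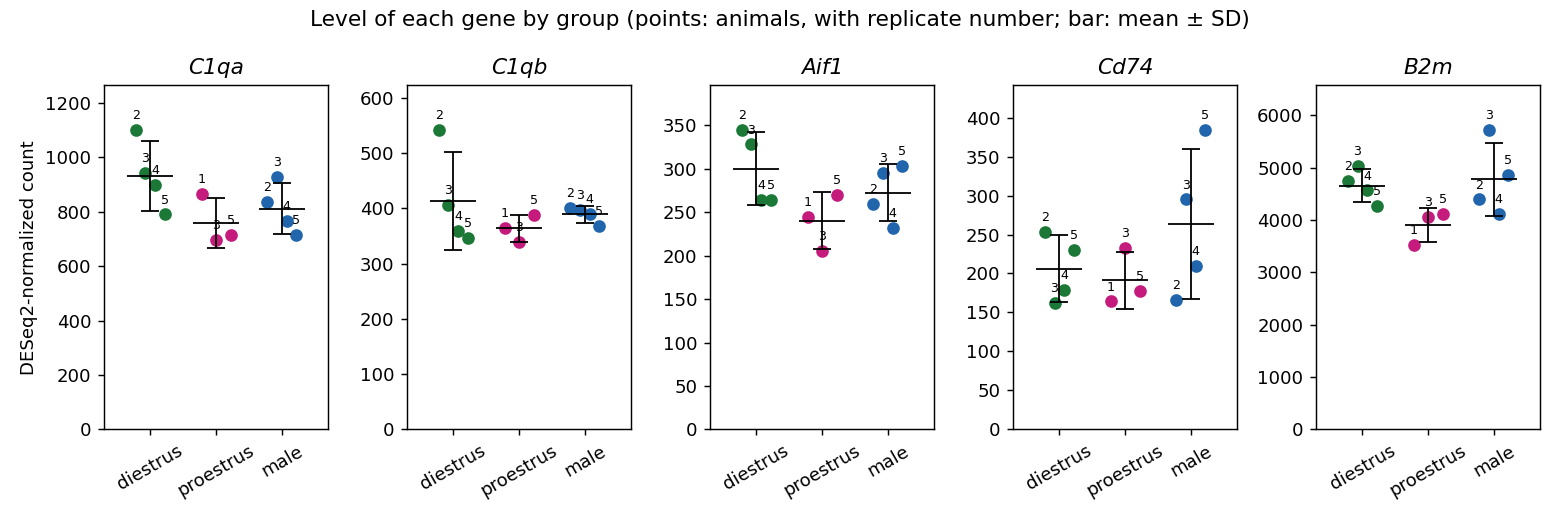
DESeq2-normalized count (vertical axes, starting at 0, with a scale of its own for each gene) of C1qa, C1qb, Aif1, Cd74 and B2m in 4 diestrus, 3 proestrus and 4 male animals. Points are animals with their replicate number, and bars give the mean ± SD. The proestrus mean is the lowest of the 3 in each panel, the groups overlap for every gene except B2m between proestrus and diestrus, and Cd74 is most scattered among males, from 166 to 384.

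Over all 11 animals the CV was 13.1% for B2m, 14.0% for C1qb, 14.5% for C1qa, 15.1% for Aif1 and 30.7% for Cd74. Counting error alone was at most 8.22% for Cd74 and 7.14% for Aif1, the genes with the fewest reads. On the log2 scale the SD was 0.18 to 0.22 for C1qa, C1qb, Aif1 and B2m and 0.40 for Cd74, beside a median of 0.17 over the 11731 genes that averaged 50 normalized counts or more. Cd74 was thus the most variable of the 5 between animals, well above its counting error, and the others had a spread somewhat above that of the median gene.

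The comparison of proestrus with diestrus asks whether these transcripts follow the estrous cycle. The mean normalized count in proestrus (n = 3) and diestrus (n = 4) was 759 ± 91.6 and 932 ± 129 (SD) for C1qa, 240.1 ± 32.7 and 300.2 ± 42.4 for Aif1, and 3899 ± 327 and 4657 ± 317 for B2m. The proestrus mean was thus 81.4%, 80.0% and 83.7% of the diestrus mean. The means were closer for C1qb, at 364 ± 24.5 and 413 ± 89.2, and for Cd74, at 191 ± 36.5 and 206 ± 43.0. In bulk tissue such as this, fewer cells of a type and less RNA per cell cannot be told apart.

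None of the 5 genes passed the test between proestrus and diestrus. With limma, a linear model fitted across all genes, at a false discovery rate (FDR) of 0.05, 2.53% of the 15607 genes were called in this comparison, 2.45% higher and 0.0833% lower in proestrus, and 0 of the 5. edgeR and DESeq2, which called 2.7% and 7.63% of the genes they tested, also called 0 of the 5. DESeq2 called 883 genes higher and 193 lower in proestrus. The limma share depended on single animals: 0 genes were called without proestrus replicate 1 or without proestrus replicate 3, and 1774 without diestrus replicate 5. At an unadjusted limma p under 0.05 the count was 3 of 5, all lower in proestrus, where 26.7% of all genes had such a p and 11.5% had it with a lower proestrus level. These 3 were Aif1, with a log2 fold change of -0.32 (95% interval -0.62 to -0.02, limma adjusted p = 0.172), C1qa, at -0.29 (-0.56 to -0.03, adjusted p = 0.157), and B2m, at -0.26 (-0.48 to -0.03, adjusted p = 0.152). The intervals are not adjusted for the number of genes, and for Aif1 they span 65.0% to 98.8% of the diestrus level. With 1 animal left out, the log2 fold change ran from -0.41 to -0.21 for Aif1, from -0.39 to -0.21 for C1qa and from -0.30 to -0.19 for B2m. The log2 fold change was -0.16 (-0.45 to 0.12, limma adjusted p = 0.426) for C1qb and -0.10 (-0.64 to 0.44, adjusted p = 0.809) for Cd74, and the C1qb value was -0.02 without diestrus replicate 2.

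B2m was the single gene of the 5 whose proestrus and diestrus animals did not overlap, a pattern that 11.6% of all genes showed in the same direction. A two-sided exact permutation test of its log2 level gave p = 0.0571, where the smallest p that 3 against 4 animals allow is 0.0286, and 0.571 after adjustment over the 20 such tests made. The same test gave p = 0.114 for C1qa, 0.171 for Aif1, 0.514 for C1qb and 0.771 for Cd74 (exact permutation, two-sided).

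Against males, the comparison asks whether females of each stage differ by sex. The male mean (n = 4) was 811 ± 92.6 (SD) for C1qa, 389 ± 14.6 for C1qb, 272 ± 32.9 for Aif1, 264 ± 96.8 for Cd74 and 4774 ± 703 for B2m. It lay between the proestrus and diestrus means for C1qa, C1qb and Aif1 and above both for Cd74 and B2m. The proestrus mean was the lowest of the 3 groups on the log2 scale for all 5 genes, which held for 40.7% of the 15607 genes.

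In proestrus against males, 0 of the 5 genes were called by limma, edgeR or DESeq2, which called 0.0833%, 0.0833% and 0.875% of all genes, and 1 of the 5 had an unadjusted limma p under 0.05, as did 11.3% of all genes. That gene was B2m, with a log2 fold change of -0.28 (95% interval -0.51 to -0.06, limma adjusted p = 0.388). The value for Cd74, -0.40 (-0.94 to 0.13, limma adjusted p = 0.527), was larger but rested on wider scatter, and it was -0.20 without male replicate 5. The other 3 values were -0.18 for Aif1, -0.10 for C1qa and -0.10 for C1qb, and with 1 animal left out they ran from -0.27 to -0.07, from -0.19 to -0.03 and from -0.14 to -0.05.

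In diestrus against males, where limma, edgeR and DESeq2 called 0.128%, 0.141% and 0.78% of all genes, they called 0 of the 5, and 0 had an unadjusted limma p under 0.05, beside 9.62% of all genes. C1qa had a log2 fold change of 0.20 (95% interval -0.05 to 0.44, limma adjusted p = 0.583), the highest of the 5, and Cd74 one of -0.30 (-0.80 to 0.19, adjusted p = 0.652), the lowest, which was -0.10 without male replicate 5. Aif1, C1qb and B2m stood at 0.14, 0.07 and -0.03. The C1qa value was 0.11 without diestrus replicate 2, and that of Aif1 0.06 without male replicate 4.

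With both stages taken as 1 group of 7 females against the 4 males, limma, edgeR and DESeq2 called 0.135%, 0.147% and 0.487% of all genes and 0 of the 5. None of the 5 had an unadjusted limma p under 0.05, as 4.83% of all genes did. The log2 fold change was 0.00 for Aif1 (95% interval -0.29 to 0.29) and also 0.00 for C1qb (-0.25 to 0.24). As a share of the male level, these unadjusted intervals span 81.8% to 122% for Aif1 and 84.1% to 118% for C1qb. C1qa stood at 0.07, B2m at -0.14 and Cd74 at -0.34 (-0.79 to 0.10, limma adjusted p = 1.00), the last being -0.14 without male replicate 5. The C1qa value was 0.01 without diestrus replicate 2, and that of B2m -0.05 without male replicate 3. The comparisons of each stage with males share the same male animals, and the plot of fold changes sets all 4 comparisons side by side.

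**Figure D2:**
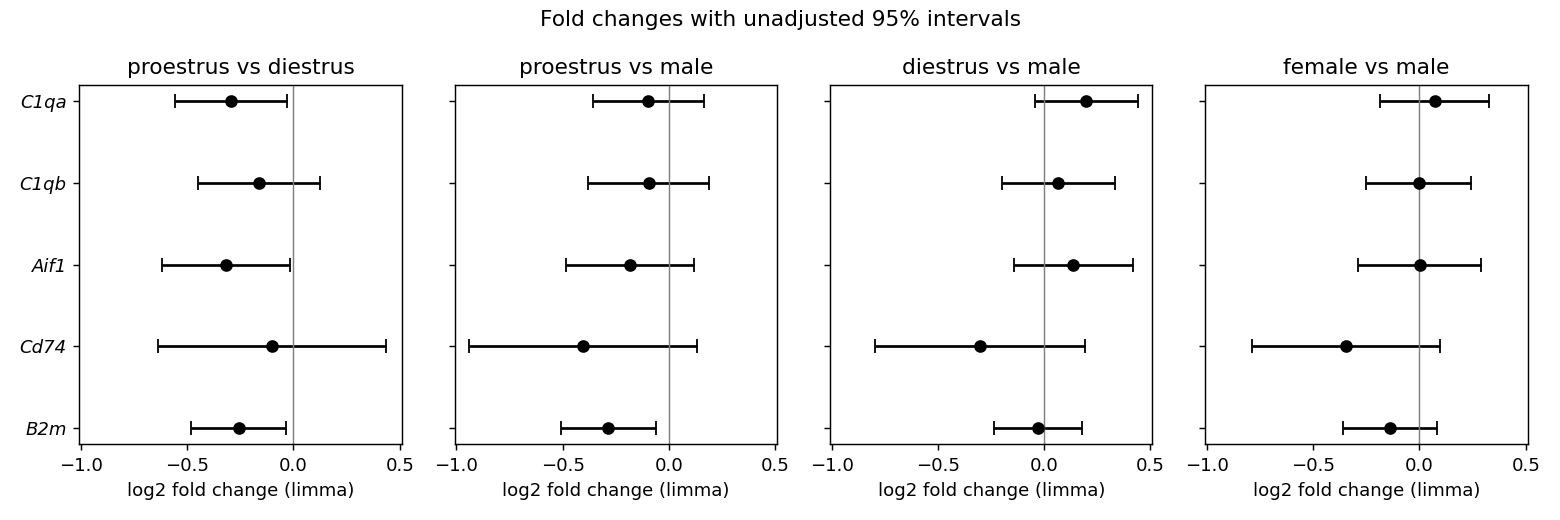
Log2 fold changes from limma (horizontal axes, first-named group over second) for the 5 genes in the 4 comparisons of 3 proestrus, 4 diestrus and 4 male animals, or 7 females and 4 males. Points are estimates and bars unadjusted 95% intervals; Aif1, C1qa and B2m in proestrus vs diestrus and B2m in proestrus vs male exclude 0, and the Cd74 interval is the widest in each panel.

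In the same animals, a transcript of red blood cell precursors changed with sex. Alas2, the erythroid enzyme that starts heme synthesis, had 16 to 28 normalized counts in diestrus, 11 to 24 in proestrus and 48 to 106 in males, and fell in females by 1.85 on the log2 scale (limma adjusted p = 0.0120). Against males it fell by 2.01 in proestrus and fell by 1.73 in diestrus (limma adjusted p = 0.0293 and 0.0339). These calls were lost in 4 and in 6 of the 11 fits that left out 1 animal. The call in diestrus was also lost under quantile normalization (limma adjusted p = 0.0725), and that in proestrus with the replicate number as a block (limma adjusted p = 0.156). The 2 males with the most Alas2, replicates 3 and 5 (106 and 67.7 normalized counts), were also the 2 animals with the most Cd74, in the opposite order. Male replicate 4, at 63.8, was close to replicate 5 in Alas2 and had 209 normalized counts of Cd74. The call in females against males was lost without male replicate 3 and also without male replicate 5. The part of residual blood in the Cd74 values was not tested.

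Ratios within a library do not depend on how the libraries were scaled, and ask whether the genes kept in step. The count ratio of C1qa to C1qb, the chains that assemble together, was 1.84 to 2.50 with a median of 2.09 over the 11 animals. C1qa to Aif1 ran from 2.36 in male replicate 5 to 3.53 in proestrus replicate 1, and B2m to Aif1 from 13.8 to 19.8. Cd74 to Aif1 had the widest range, from 0.495 in diestrus replicate 3 to 1.27 in male replicate 5. In none of the 16 tests of these 4 ratios between groups did the two-sided exact permutation test pass, with a lowest raw p of 0.143 (B2m to Aif1, diestrus against males, a log2 difference of -0.16) and a lowest adjusted p of 0.640.

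Across the 11 animals, C1qa and C1qb had a Pearson r of 0.73 and a Spearman rho of 0.64 (permutation p = 0.00827 and 0.0396, adjusted over 10 pairs 0.0684 and 0.157). This relation rested on diestrus replicate 2 and proestrus replicate 3, since r was 0.25 without them, while it was 0.71 with all animals after the group means were removed. The same held for Aif1 with C1qa, where r was 0.66, then 0.27 without the 2 animals and 0.48 after removal of the group means, and for Aif1 with C1qb, where the values were 0.69, 0.30 and 0.63.

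Aif1 and B2m had r = 0.68 and rho = 0.81 (permutation p = 0.0219 and 0.00402, adjusted 0.0684 and 0.0402), and r was 0.76 without the same 2 animals and 0.57 after the group means were removed. It was the single pair of 10 to pass after adjustment, and by rank alone. Cd74 had r between -0.14 and 0.49 with the other 4 genes and passed with none, its largest r being with B2m, which was 0.09 without male replicates 3 and 5.

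The levels also moved with the main axis of variation of the whole data set, a relation that was examined after the values had been seen. The first principal component of the 500 most variable genes, none of them among the 5, held 24.8% of their variance, with diestrus replicates 2 and 3 at -16.0 and -16.9 and the 3 proestrus animals from 10.2 to 15.2. Males lay along the whole axis, from -12.1 for replicate 3 to 13.0 for replicate 4. The level of C1qa had r = -0.80 with this score, that of B2m -0.78 and that of Aif1 -0.77 (each permutation p adjusted over the 5 genes = 0.0098), and that of C1qb -0.58 (adjusted permutation p = 0.0470; by Spearman rho, -0.59, 0.0769).

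Over all 11 animals after the group means were removed, r was -0.66 for C1qa, -0.78 for B2m, -0.59 for Aif1 and -0.50 for C1qb, and without the 2 animals at the ends of the axis r was -0.93, -0.69, -0.71 and -0.59. Such values were common in the data set: of the 11731 genes with a mean of at least 50, 18.6% had an r at or below that of C1qa, 20.3% at or below that of B2m, 21.5% at or below that of Aif1 and 34.2% at or below that of C1qb. Cd74 did not follow the axis, with r = -0.04 (adjusted permutation p = 0.917). What moves this axis was not tested.

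**Figure D3:**
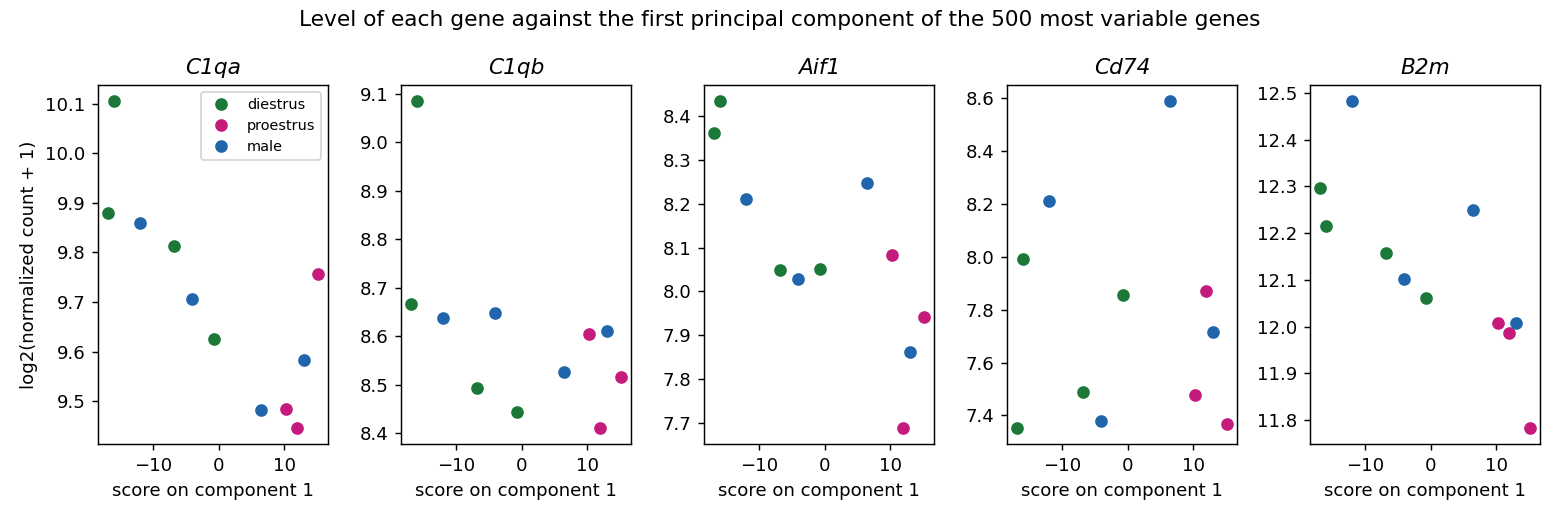
Level of each gene, as log2(DESeq2-normalized count + 1) on vertical axes that do not start at 0, against the score on the first principal component of the 500 most variable genes, for the 11 animals coloured by group. C1qa, Aif1 and B2m fall from left to right (r = -0.80, -0.77 and -0.78), C1qb less steeply (r = -0.58), and Cd74 shows no slope (r = -0.04).

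The genes whose pattern over the 11 animals was most like the mean standardized level of the 5 were sought among named genes only. Most of the 11731 genes with a mean of at least 50 had no name here and could not be picked. The top genes came from outside the lists of microglial and antigen presentation genes. Those lists held only 12 and 9 genes, so their absence from the top says little. Among 1029 other named genes with a mean of at least 50, the highest Pearson r belonged to Psmb1, a core subunit of the proteasome (0.94), Psmg1, a chaperone of proteasome assembly (0.92), RGD1304704 (0.92), Naca, which binds nascent chains at the ribosome (0.91), and Fam162a (0.91). Their likeness largely sets the order of their group means, which is no separate result. The Psmb1 count, for example, was 3191 ± 453 (SD, n = 4) in diestrus, 2525 ± 91.6 (n = 3) in proestrus and 2892 ± 294 (n = 4) in males.

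Other genes of the same cells and pathways were read from lists, of which 59 further genes were in the table. Of the 12 genes of microglia and myeloid cells, 0 passed the limma test in any of the 4 comparisons. In proestrus against diestrus 9 of the 12 had a log2 fold change below 0, with a median of -0.16, beside 51.7% and -0.01 over all genes, and 1 of the 12 had an unadjusted p under 0.05, as did 26.7% of all genes. The microglia-specific Tmem119 had 450 ± 32.2 normalized counts (SD, n = 3) in proestrus, 481 ± 72.6 (n = 4) in diestrus and 446 ± 49.2 (n = 4) in males, and its log2 fold change between the stages was -0.09 (limma adjusted p = 0.663). Selplg, the P-selectin ligand that microglia also express, had 677 ± 45.0, 777 ± 39.1 and 728 ± 82.8, a log2 fold change of -0.20 (limma adjusted p = 0.205). The lowest value of the list belonged to Ly86, partner of a Toll-like receptor homologue on myeloid cells, at -0.66 (limma adjusted p = 0.110), from 20 to 51 reads per library.

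Of the 9 genes of antigen processing and the MHC, 0 passed limma in any comparison, and 7 of 9 lay below 0 in proestrus against diestrus, with a median of -0.08. The class I gene RT1-N3 had 241 ± 32.8 normalized counts in proestrus (n = 3), 348 ± 13.0 in diestrus (n = 4) and 317 ± 67.1 in males (SD, n = 4), and its log2 fold change between the stages was -0.54 (limma adjusted p = 0.0881). All 3 proestrus animals lay below all 4 diestrus animals, as for B2m and for 11.6% of all genes, and DESeq2, which called 7.63% of the genes it tested, called this gene (adjusted p = 0.0269). RT1-S3 and RT1-M3-1, of similar level, stood at -0.07 and -0.08 between the stages (limma adjusted p = 0.852 and 0.781). RT1 genes belong to a family of near-identical copies, so that the count of a single member is uncertain. Tap1 and Tap2, the paired subunits of the class I peptide transporter, stood at 0.00 and -0.49 between the stages (limma adjusted p = 0.995 and 0.316), and the Tap2 counts were 14.3 to 18.1 in proestrus, below the 19.3 to 27.3 of diestrus, an order that 11.6% of all genes shared. The lowest value of the list, -0.79 (limma adjusted p = 0.244), belonged to the class II gene RT1-DOb, from 1.90 to 15.3 normalized counts in females, and the immunoproteasome gene Psmb8 stood at 0.04 (adjusted p = 0.914).

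Of the 3 further complement genes listed, 0 passed limma in any comparison. Masp1, a protease of the lectin pathway, had 554 ± 76.4 normalized counts in proestrus (n = 3) and 720 ± 167 in diestrus (SD, n = 4), which is -0.36 as a log2 fold change (limma adjusted p = 0.185), and Cfb, factor B of the alternative pathway, had a log2 fold change of -0.17 (adjusted p = 0.423). The third, listed as LOC100909666, stood at 0.12 (limma adjusted p = 0.664). None of the 7 interferon-induced genes passed either, and 6 of the 7 had a mean under 50 normalized counts. Of the listed genes whose products restrain microglia, Cd47 had a log2 fold change of 0.39 between the stages, higher in proestrus (limma adjusted p = 0.0959). DESeq2 called Cd47 (DESeq2 adjusted p = 0.0387), and Cd200 had a log2 fold change of 0.05. Which cells made these transcripts was not measured, and Cd47 had r = 0.83 with the score on the first principal component.

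**Figure D4:**
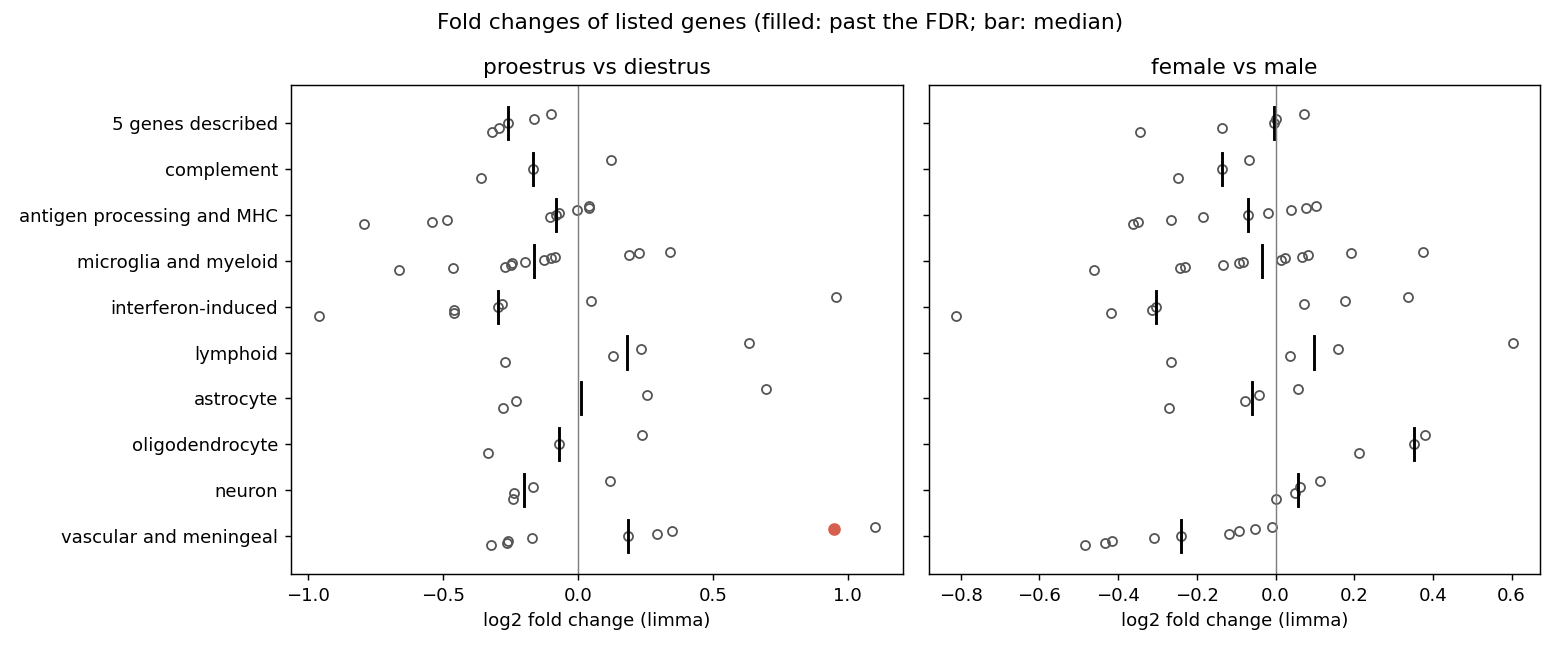
Log2 fold changes from limma (horizontal axes, each panel with its own scale) of the 5 genes and of 9 lists of genes of related pathways and cell types, for proestrus vs diestrus (3 and 4 animals) and female vs male (7 and 4). Each circle is a gene, a filled one passed the FDR, and bars are list medians. The erythroid list (Alas2) and the lists of oligodendrocyte precursors and of signals to microglia are not drawn. Among the genes drawn, Heg1 alone is filled, and no gene of the microglial, complement, antigen presentation or interferon lists is filled.

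Markers of the labelled tissue were present, with the summed normalized count of 4 neuronal genes at 44030 to 60100 per animal and that of 4 lymphoid genes at 28.4 to 68.6. The microglia and myeloid sum was 1670 to 1685 in proestrus, 1778 to 1938 in diestrus and 1623 to 1921 in males, lower in all proestrus than in all diestrus animals. The sum of the 4 neuronal genes showed the same order, from 45820 to 47240 in proestrus and 47300 to 60100 in diestrus, although 1 of the 4, Gad1, stood at 0.12 on the log2 scale. That order was shown by 11.6% of single genes, a share that does not apply to sums, for which none was computed. Among the markers of other cells, Heg1, of endothelium, rose in proestrus against diestrus by 0.95 on the log2 scale (limma adjusted p = 0.0439), where the 9 vascular and meningeal genes split into 5 above and 4 below 0, with Myh11, of smooth muscle, at -0.32 (adjusted p = 0.149), and Col18a1, of basement membranes, fell in diestrus against males by 0.61 (adjusted p = 0.0339). With 1 animal left out, the Heg1 call was kept without diestrus replicate 5, male replicate 3 or male replicate 4 and the Col18a1 call without diestrus replicate 5, male replicate 3 or proestrus replicate 1, and each was lost in the other 8 fits. The 4 astrocyte genes did not move together, with S100b at -0.28 and Sox9 at 0.70 between the stages, a list median of 0.01 and no call by limma. The part of tissue makeup in the values of the 5 genes was not tested.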

How the data were processed

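RNA-seq was performed on mPFC punches of 11 rats, grouped by their labels. The authors prepared poly(A) unstranded libraries with spike-ins, trimmed reads with Trimmomatic 0.32, aligned them with TopHat2 2.0.11 and Bowtie2 2.1.0 to Rnor_5.0, counted reads per Ensembl gene with HTSeq 0.6.1p1 and left 1 proestrus library out as an outlier. The 2 deposited tables give each gene a normalized signal, never below 0: the first was normalized with DESeq2 1.4.5, and the second, named for edgeR 3.6.7, was not scaled for depth and served only as an alternative. In the deposited DESeq2 table, 100% of values were whole multiples of 1 step per library within a tolerance of 0.01, which returned the reads, 15.9 to 24.6 M per library. The share in male replicate 3 is less telling, as its step is near 1.

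The test was limma 3.58.1 in R 4.3.3 on log2(DESeq2-normalized count + 1), a scale that understates the change of low counts. The 3 groups shared 1 fit, and female against male had sex as its sole term. The Benjamini-Hochberg method was applied over 15607 genes at an FDR of 0.05. The recovered reads were tested with edgeR 4.0.16 (quasi-likelihood) and DESeq2 1.42.0. The fits were tested on simulated data. Exact permutation tests and permutation tests of correlations (100000 resamples) used SciPy 1.17.1. P-values measure the spread between these animals.

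The 5 genes and all lists were chosen with earlier results of these data known. The names of the 5 came with their identifiers, and other names from the name column of the study's supplementary gene table, held in part, from which no value was taken. Named from the lists were genes past the FDR or, otherwise, up to 4 per list by mean count; Ly86, RT1-N3, RT1-DOb, Cd47, Cd200, Tap1, Tap2, Psmb8 and Myh11 were named after their values were seen wherever that rule left them out. The 5 most alike genes were ranked by Pearson r among named genes only. Promoters came from a RefSeq table (GRCr8), and no coordinates were carried between builds.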

Additional observations from a re-analysis of the deposited data

Results flagged for a closer look

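In males, the log2 ratio of C1qa to Aif1 was 1.24 in replicate 5 and 1.65 to 1.72 in the other 3 animals, a gap that took 0.855 of the whole range. It was the single such value in 42 groups of values examined, of which chance marks about 1 in 20. Male replicate 5 was also the animal with the most Cd74. The endothelial gene Heg1 differed between the stages in its difference from males, by 0.95 on the log2 scale (limma adjusted p = 0.0439). Since the males cancel, this is the proestrus against diestrus value given above and no separate result, and its call was lost in 8 of the 11 fits that left out 1 animal.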

How the results depend on the processing

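The 20 fold changes of the 5 genes, 1 for each gene and comparison, were recomputed under 19 alternatives: other pseudocounts (5 and 0.5), a mean count filter of 50, the edgeR-named table, quantile normalization, edgeR, DESeq2, a replicate block, and each of the 11 animals left out. None passed the FDR under any of them, the lowest adjusted p being 0.0587 (limma, C1qa, proestrus against diestrus, without diestrus replicate 5). In 15 of the 20 the direction held throughout.

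The other 5 were near 0. For Aif1 in females against males, quantile normalization gave -0.00912 and leaving out 1 animal -0.0746 to 0.0667. For C1qb in females against males, edgeR gave 0.0116, DESeq2 0.0128 and the replicate block 0.0395, and leaving out 1 animal -0.0833 to 0.029. Leaving out 1 animal gave -0.0711 to 0.143 for C1qb and -0.0946 to 0.0637 for B2m in diestrus against males, and -0.249 to 0.00642 for Cd74 in proestrus against diestrus. The cause was not tested.

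Leaving out 1 animal gave log2 differences in ratio of -0.0946 to 0.086 for C1qa to C1qb in proestrus against males. For C1qa to Aif1 it gave -0.0518 to 0.154 in proestrus against diestrus, -0.0255 to 0.214 in proestrus against males, -0.0515 to 0.111 in diestrus against males and -0.0403 to 0.122 in females against males. It gave -0.038 to 0.354 for Cd74 to Aif1 and -0.0757 to 0.153 for B2m to Aif1 in proestrus against diestrus, and -0.189 to -0.0878 for B2m to Aif1 in females against males, where 1 such value passed. The r of C1qb with Cd74 was -0.20 without the 2 animals farthest from the median.

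Of the 59 listed genes, limma called 1 in proestrus against diestrus, where DESeq2 called 4 and the replicate block 3, and leaving out 1 animal 0 to 4. On all animals these fits called 2.53%, 7.63% and 3.31% of all genes tested, and leaving out 1 animal gave 0 to 1774 of the 15607 genes. In proestrus against males limma called 1 (Alas2), DESeq2 2, the replicate block 0 (Alas2, limma adjusted p = 0.156), and leaving out 1 animal 0 to 3. In diestrus against males it called 2, DESeq2 3, and leaving out 1 animal 0 to 3. In females against males it called 1, DESeq2 2, and leaving out 1 animal 0 to 1. Over all genes tested, limma and DESeq2 called 0.0833% and 0.875%, 0.128% and 0.78%, and 0.135% and 0.487% in these 3 comparisons. With 1 animal left out, limma called 2 to 26, 1 to 88 and 1 to 24 of the 15607 genes in them. The edgeR, DESeq2 and block fits called 0 of the 5 genes. Males were killed on the same days as females, but the sources used here do not tie a replicate number to a day. Same-numbered animals had correlated deviations (r over 0.1) in 6 of 8 pairs, from 0.01 to 0.59, while differently numbered pairs ran from -0.67 to 0.58. In 11 of 16 cases the highest correlation was with the own number, a hint of pairing by number. The main fits carry no block and so do not take such pairing into account, and the replicate block was run only as an alternative. Whether days explain the correlated pairs was not tested. With 3 or 4 animals a group, 15.9 to 24.6 M reads and p floors of 0.0286 in the exact tests between stages, differences of the size of the unadjusted intervals could not be told from animal spread.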
